A study of Mus musculus with 35 samples.

Results

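The genes described here encode the heat shock proteins, the J proteins (the Dnaja, Dnajb and Dnajc genes, whose products recruit HSP70 to its clients), the BAG nucleotide exchange factors with HSPBP1, the chaperone-linked ubiquitin ligase CHIP (*Stub1*) and the transcription factors HSF1 and HSF2. They were chosen by symbol alone, with pseudogenes dropped, and comprised 81 of the 39109 entries of the count table under 80 symbols, since *Hspa14* has 2 entries (ENSMUSG00000051396 and ENSMUSG00000079615). The rule itself uses no measured value, though it was set with earlier results of these data known.

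RNA from the striatum of 35 mice was sequenced, 1 library per mouse, in a cross of the huntingtin CAG knock-in allele *HttQ111* with a deletion of the histone deacetylase gene *Hdac2*. The groups were 8 *Htt+/+* *Hdac2* WT, 7 *HttQ111/+* *Hdac2* WT, 9 *Htt+/+* *Hdac2* KO and 11 *HttQ111/+* *Hdac2* KO mice, aged 21.71 to 23.0 weeks. *HttQ111/+* mice were heterozygous for a knock-in allele of 110 to 144 CAG repeats, and *Htt+/+* mice carried 7 repeats. *Hdac2* KO mice had 2 floxed *Hdac2* alleles and the D9-Cre transgene, which expresses Cre under the *Ppp1r1b* (DARPP-32) promoter, so the gene was deleted in medium-spiny neurons (MSNs), the projection neurons of the striatum, while other striatal cells kept it. *Hdac2* WT mice had no Cre and 2 floxed alleles, except for 2 *Htt+/+* mice with 1 floxed allele, so Cre and the deletion cannot be told apart. Each group held both sexes (5 males and 3 females, 4 and 3, 5 and 4, and 8 and 3, in the order given).

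Library totals were 50970712 to 77867348 counts with a median of 57322618. Counts of the whole *Hdac2* gene, which include cells that kept the gene and sequence outside the deletion, were lower by 0.12 on the log2 scale in *HttQ111/+* *Hdac2* KO than in *HttQ111/+* *Hdac2* WT mice (adjusted p = 0.00198, edgeR) and by 0.09 without passing the test in *Htt+/+* mice (adjusted p = 0.0552). *Hdac1*, the paralog of *Hdac2*, was higher by 0.54 in *Htt+/+* and 0.49 in *HttQ111/+* mice (adjusted p = 7.35e-07 and 5.49e-07). All 10 MSN markers were detected in every library, and their summed level had medians of 9060, 6540, 8780 and 7630 counts per 1000000, scaled by TMM (CPM), in the groups as listed above. Summed levels of 5 cortical projection neuron markers were 3.56 to 61.8 CPM in all but 3 libraries, with 433 in *HttQ111/+* *Hdac2* WT replicate 7 and 167 and 132 in *Htt+/+* *Hdac2* KO replicates 6 and 2. In bulk tissue, fewer cells of a type and less RNA per cell cannot be told apart. RNA was extracted on 6 days that were close to separate for *Hdac2* WT and *Hdac2* KO mice, and the values that bear on this are given with the *Hdac2* results.

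Chaperones bind unfolded or misfolded proteins and hold, refold or pass them on for degradation. HSP70 proteins work in a cycle of ATP hydrolysis that J proteins start and that BAG proteins and HSP110 close by exchanging the nucleotide, HSP90 proteins finish the folding of kinases and receptors, and small heat shock proteins keep clients from aggregating. In stressed cells HSF1 binds heat shock elements, repeats of a short GAA unit in alternating orientation, and raises the inducible chaperones of the cytosol and mitochondria, while the unfolded protein response acts on ER stress elements before the chaperones of the endoplasmic reticulum (ER). Chaperones of the HSP70 system have long been studied with polyglutamine proteins such as mutant huntingtin, whose aggregation several of them limit.

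The sequences before the start sites that carry these elements are shown because 13 members are known heat-inducible HSF1 targets and 6 are known targets of the unfolded protein response, and these lists are followed below. Windows of 300 nt, 250 before and 50 after the start, were given by RefSeq (GRCm38.p6) for 65 of the 80 symbols and searched on both strands. The pair of facing heat shock units GAANNTTC was in the window of 15 of the 65 (23.1%), against 9.04% of 27025 genes, in 8 of 10 heat-inducible members with a window and in 0 of 5 members of the unfolded protein response. The pair TTCNNGAA was in 6 of the 65 and in 9.6% of all genes, and the run of 3 units made of GAANNTTC followed at once by NNGAA, which contains both pairs, was in *Dnajb6*, *Hspd1*, *Hspe1* and *Hsph1*, against 0.662% of all genes. The ER stress element, CCAAT and CCACG with 9 bases between them, was in *Hspa5*, *Hsp90b1* and *Dnajc3*, 3 of 5 members of the unfolded protein response with a window, against 0.137% of all genes. The windows of *Hspd1* and *Hspe1* overlap and hold the same stretch of heat shock units, which was counted for both genes. These lists were chosen as known targets of the factors, so the shares only describe the windows. Capitals mark the matched letters in stretches of 70 nt of the coding strand:
Hspa1a, chr17:34972222-34972291, minus strand: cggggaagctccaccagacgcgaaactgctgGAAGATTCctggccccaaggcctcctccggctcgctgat
Hspa1b, chr17:34959304-34959373, minus strand: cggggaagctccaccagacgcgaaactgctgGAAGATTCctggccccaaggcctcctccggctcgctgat
Dnaja1, chr4:40722313-40722382, plus strand: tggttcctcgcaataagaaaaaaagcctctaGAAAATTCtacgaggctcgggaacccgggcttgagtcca
Hspb1, chr5:135887791-135887860, plus strand: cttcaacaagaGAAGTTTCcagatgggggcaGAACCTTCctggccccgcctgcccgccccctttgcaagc
Hspd1, chr1:55088031-55088100, minus strand: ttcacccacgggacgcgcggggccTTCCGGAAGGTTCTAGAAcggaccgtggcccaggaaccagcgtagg
Hspa5, chr2:34771999-34772068, plus strand: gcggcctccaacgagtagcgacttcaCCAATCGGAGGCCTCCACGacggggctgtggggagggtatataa
Hsp90b1, chr10:86705508-86705577, minus strand: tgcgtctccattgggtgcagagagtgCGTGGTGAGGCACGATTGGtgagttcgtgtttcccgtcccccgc
Dnajc3, chr14:118937801-118937870, plus strand: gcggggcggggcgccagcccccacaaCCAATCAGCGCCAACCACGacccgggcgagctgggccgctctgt
The stretches of *Hspa1a* and *Hspa1b* were identical, and the capitals of *Hsp90b1* hold the element on the other strand. A match describes letters in a window, and whether a factor was bound there was not measured.

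Levels of the chaperone genes spanned 5 orders of magnitude per kb of exon. The constitutive cytosolic HSP90, *Hsp90ab1*, was the highest at 511 CPM per kb of merged exons (mean of the 35 libraries), followed by other chaperones that every cell uses: *Hsp90b1* (GRP94) at 115, *Hspa8* (HSC70) at 112, *Dnaja2*, a main J partner of HSC70, at 73.8 and *Hsp90aa1* at 73.5. Of these, *Hsp90ab1*, *Hspa8* and *Hsp90aa1* are also in the list of heat-inducible members, so that list holds genes that are abundant throughout. The inducible HSP70 genes *Hspa1a* and *Hspa1b* were at 1.36 and 1.34 CPM per kb. Of the transcription factors, *Hsf1* was at 3.62 and *Hsf2* at 2.84 CPM per kb. Of the 81 entries, 80 had an exon length. Counts covered whole gene intervals, introns included, so these levels rank long genes too high.

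**Figure D1:**
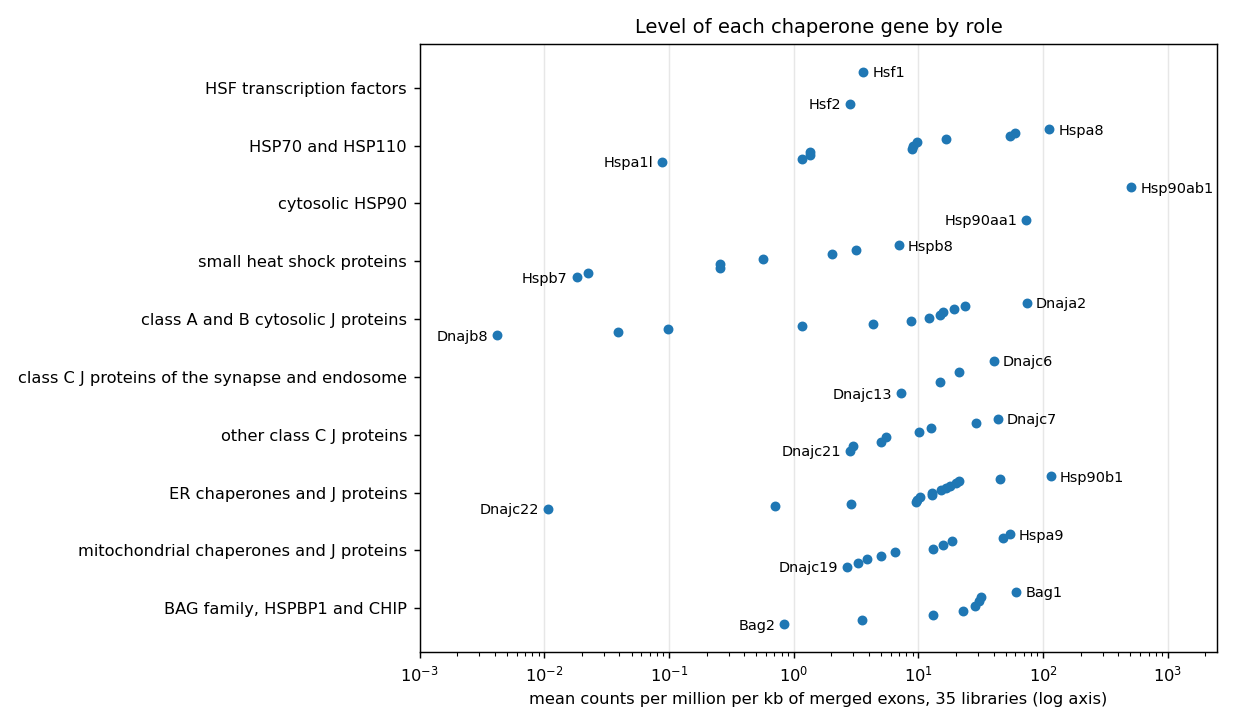
Level of 80 entries, as mean CPM per kb of merged exons over the 35 libraries on a log axis, with 1 row per role and names for the highest and lowest member. *Hsp90ab1* at 511 and *Dnajb8* at 0.00418 mark the range.

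The highest members of the other roles were *Bag1*, a nucleotide exchange factor of HSP70, at 61.0, the mitochondrial HSP70 *Hspa9* (mortalin) at 54.2, the TPR-domain J protein *Dnajc7* at 43.1 and the clathrin-uncoating J protein *Dnajc6* (auxilin) at 40.1 CPM per kb. Among small heat shock proteins, *Hspb8*, which works with *Bag3* in selective autophagy, was the highest at 6.99. The lowest of each role were *Hspa1l* at 0.0878, *Hspb7* at 0.0182, *Dnajb8* at 0.00418, *Dnajc22* at 0.0107, *Dnajc21* at 2.85, *Dnajc19* at 2.69, *Dnajc13* at 7.3 and *Bag2* at 0.842 CPM per kb. A gene was tested in a comparison where 1 or more of its groups had 6 counts or more in each mouse. *Dnajb13*, *Dnajb7*, *Dnajb8*, *Dnajc22*, *Hspb7* and *Hspb9* were never tested, and *Dnajb8* reached at most 2 counts with 0 in 28 libraries. *Hspb3* missed 3 of the 5 pairwise comparisons, *Hspb2* and *Hspa1l* missed 1 each, and 74 of 81 entries were tested in each.

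Most members varied little between mice of a group. The SD of log2 CPM within groups had a median of 0.115 over the 72 members with enough counts, against 0.142 over 16361 genes, and 51 of the 72 lay below the median of all genes. *Hspa9* had the lowest SD, 0.0521, which put it at percentile 0.99 of all genes. The heat-inducible members had a median SD of 0.174 (0.0899 to 0.959) and those of the unfolded protein response 0.152 (0.0942 to 0.344). *Hspa1b* and *Hspa1a*, at percentiles 99.6 and 99.4 with SDs of 0.959 and 0.819, were the only members in the highest 10% of all genes.

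*Hspa1a* ranged from 2.16 to 34.6 CPM (median 3.19) in *Htt+/+* *Hdac2* WT, 1.56 to 3.27 (2.90) in *HttQ111/+* *Hdac2* WT, 1.61 to 11 (1.91) in *Htt+/+* *Hdac2* KO and 2.18 to 5.39 (2.79) in *HttQ111/+* *Hdac2* KO mice. The range was set by 3 *Htt+/+* mice that were not from 1 group, sex or extraction day: 34.6 CPM in *Hdac2* WT replicate 4, a male of 27 May, 11 in *Hdac2* KO replicate 8, a male of 31 May, and 7.10 in *Hdac2* WT replicate 1, a female of 24 May. *Hspa1b* gave 34.3, 12.8 and 8.44 CPM in the same mice, and its medians in the groups were 2.84, 2.43, 1.73 and 2.33. The 2 genes are near-identical copies and only unique alignments were counted, so their split is uncertain. The same 3 mice had the highest *Dnajb1*, the J protein that works with inducible HSP70, at 88.9, 63.5 and 65.5 CPM, against group medians of 51.0, 42.6, 41.6 and 45.2. The choroid plexus markers were also highest in *Htt+/+* *Hdac2* WT replicate 1 (summed level 204 CPM, group median 38.9).

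**Figure D2:**
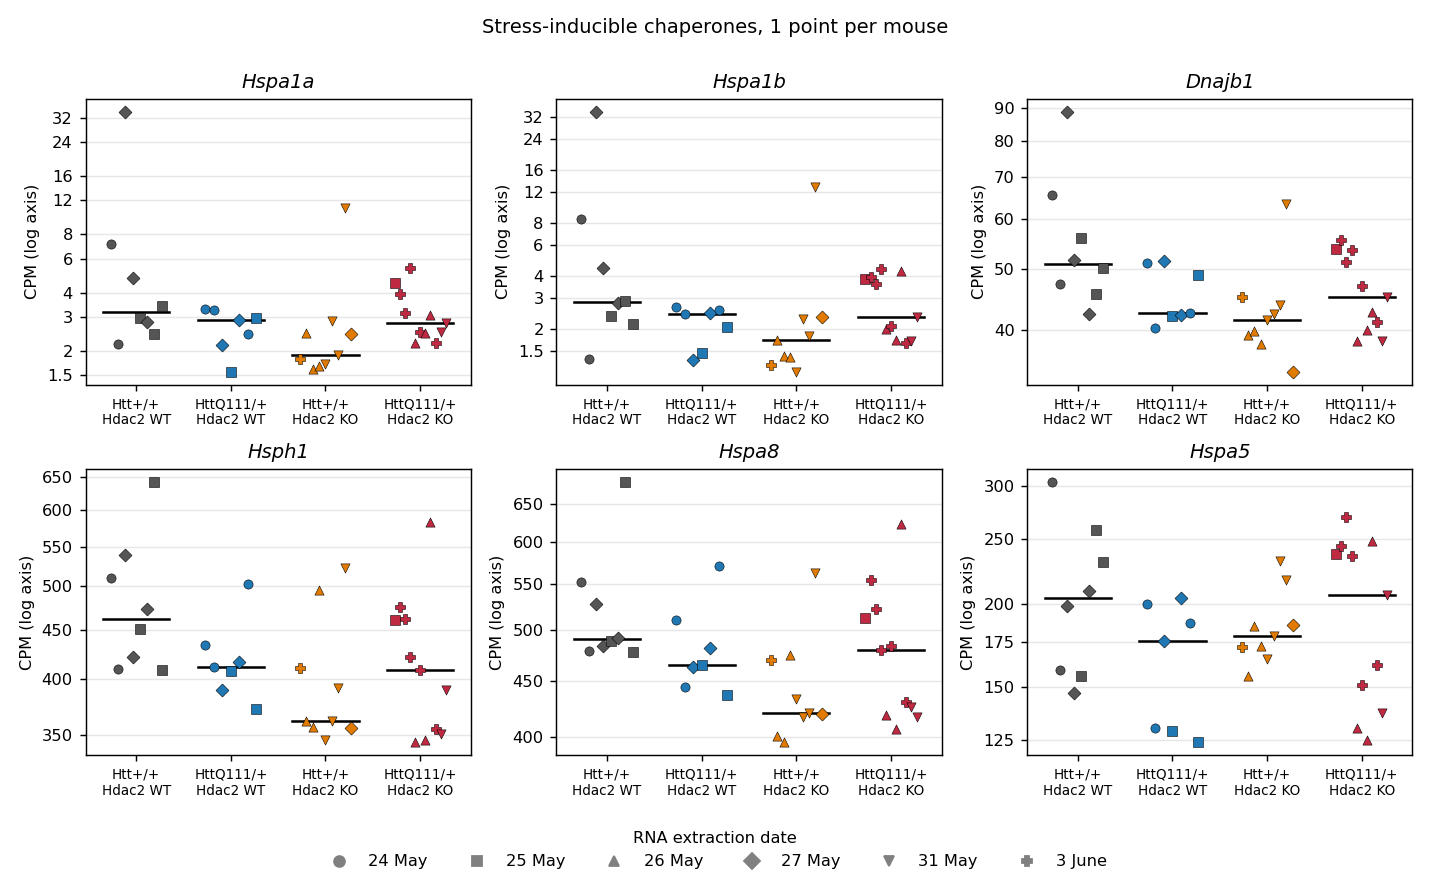
CPM of 6 members of the heat-inducible and unfolded protein response lists in each mouse (log axis), by genotype group. The group median is a line and the RNA extraction date the symbol. The highest point of *Hspa1a*, *Hspa1b* and *Dnajb1* is the same mouse (34.6, 34.3 and 88.9 CPM), while other mice are highest for *Hsph1*, *Hspa8* and *Hspa5*, and for *Hspa8* 8 of 9 *Htt+/+* *Hdac2* KO mice lie below all 8 of their controls.

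Correlations among the heat-inducible members across mice were uneven. Deviations of log2 CPM from the group means were correlated over the 35 libraries for 171 pairs of the 13 heat-inducible and 6 unfolded protein response members, with permutation p-values (100000 permutations within groups) adjusted over the 171. The 78 heat-inducible pairs had a median Pearson's r of 0.495 (-0.16 to 0.95), and 52 passed by Pearson's r and 48 by Spearman's rho as well. All pairs of 72 members had a median r of 0.03. The points of every pair share a library and its depth.

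The inducible HSP70 genes and *Dnajb1* were correlated. *Hspa1a* correlated with *Hspa1b* at r = 0.95 and rho = 0.86 (adjusted permutation p = 5.52e-05 and 7.77e-05, the smallest that the permutations allow) and with *Dnajb1* at r = 0.82 and rho = 0.65 (adjusted permutation p = 0.000151 and 0.000517). Without the 2 mice farthest from the median these were r = 0.88 and 0.62, and within extraction date and group 0.95 and 0.89 (32 libraries). *Bag3*, the inducible BAG protein that links HSP70 to small heat shock proteins, had r = 0.53 and rho = 0.25 with *Hspa1a*, where Pearson's r passed (adjusted permutation p = 0.0131) and Spearman's rho did not (0.199). That relation rests on the 2 farthest mice, since r was 0.11 without them.

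Correlations were also high among more abundant members of the list. *Hsph1* (HSP110), a nucleotide exchange factor and disaggregase partner, correlated with *Hspa8* at r = 0.94 and rho = 0.90 and with *Hsp90ab1* at r = 0.92 and rho = 0.86, and *Hsp90aa1* with the class A J protein *Dnaja1* at r = 0.89 and rho = 0.82 (each adjusted permutation p = 5.52e-05 for r and 7.77e-05 for rho). Without the 2 farthest mice these were 0.90, 0.88 and 0.88, and within date and group 0.95, 0.95 and 0.91. Both sets were linked to each other in part. *Hspa1b* passed with *Hsph1* (r = 0.54 and rho = 0.63, adjusted permutation p = 0.00573 and 0.000489) and with *Hspa8*, both cytosolic HSP90s and *Dnaja1* (r of 0.45 to 0.57), and *Dnaja1* also passed with *Dnajb1* (r = 0.58) and *Hspa1a* (r = 0.47). *Hspa1a* and *Hsph1* gave r = 0.36 and rho = 0.35 (adjusted permutation p = 0.0689 and 0.0632), which did not pass. The highest mice differed: *Hsph1* was highest in *Htt+/+* *Hdac2* WT replicate 8.

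In the ER, *Dnajb11* (ERdj3), a J partner of the ER HSP70 *Hspa5* (BiP), correlated with *Hsp90b1* at r = 0.81 and rho = 0.82 and with *Hspa5* at r = 0.76 and rho = 0.77, and *Dnajc3* (p58IPK), another BiP partner, with *Hspa5* at r = 0.80 and rho = 0.80 (each adjusted permutation p = 5.52e-05 and 7.77e-05). Without the 2 farthest mice these were 0.80, 0.72 and 0.77. Of the 15 pairs of unfolded protein response members, 8 passed by Pearson's r and 7 by both. *Dnajb9* (ERdj4), which keeps the stress sensor IRE1 inactive, gave r of -0.03, -0.04 and 0.02 with *Hspa5*, *Hsp90b1* and *Dnajb11*, and r = 0.40 and rho = 0.48 with *Hspa13*, an HSP70 of microsomes, which passed (adjusted permutation p = 0.0313 and 0.0115). The lists were not separate from each other, since 38 of the 78 pairs across them passed by Pearson's r (median 0.365).

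**Figure D3:**
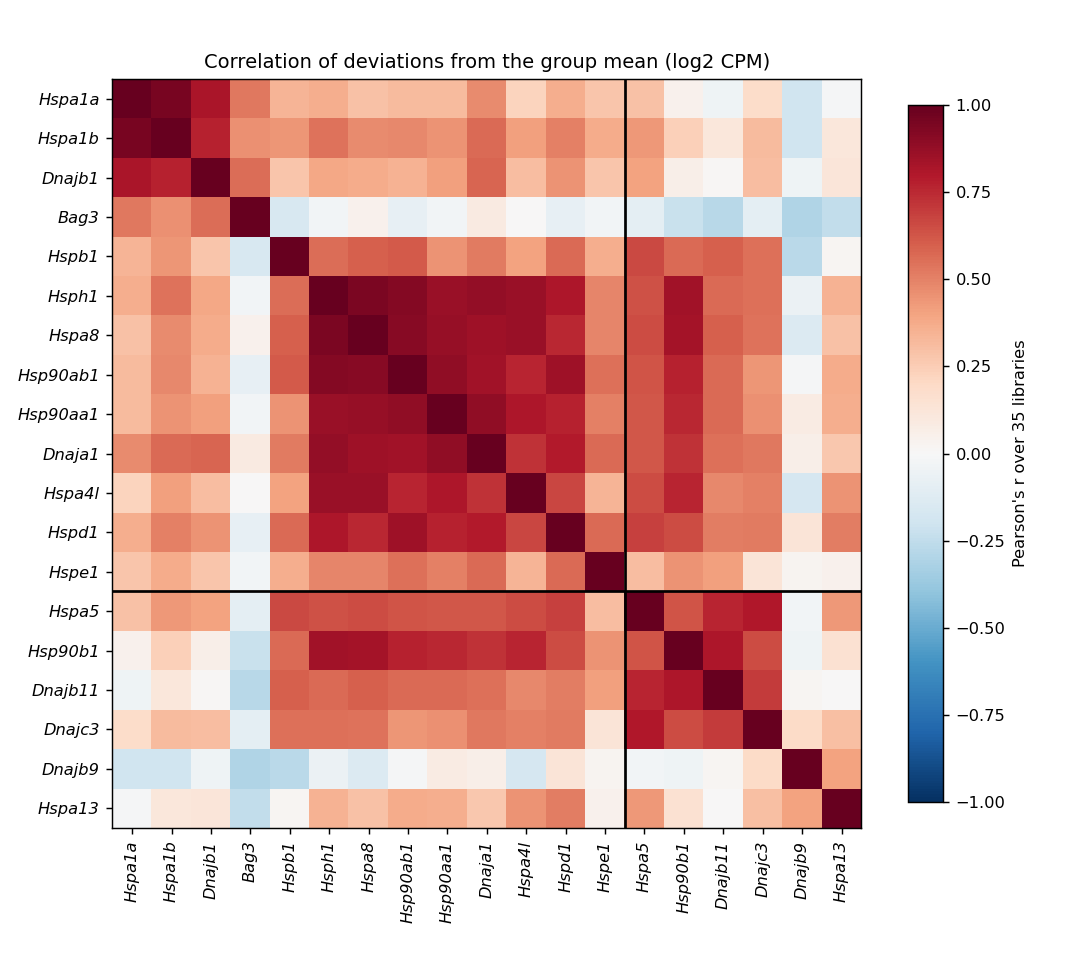
Pearson's r between deviations from the group mean (log2 CPM, 35 libraries) for 13 heat-inducible and 6 unfolded protein response members, split by the black lines. *Hspa1a*, *Hspa1b* and *Dnajb1* form a corner of r up to 0.95, *Hsph1*, *Hspa8*, the cytosolic HSP90s and *Dnaja1* a block near 0.9, and *Dnajb9* has r of -0.03 with *Hspa5* and 0.40 with *Hspa13*.

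Whether *Hdac2* KO changed the chaperones was asked in *Htt+/+* and in *HttQ111/+* mice, which share no library. The test was edgeR quasi-likelihood, with p-values adjusted over all genes tested and a threshold of 0.05. Each fit held the libraries of all genotype groups, so its covariates and its estimate of the spread drew on both backgrounds. The comparisons are therefore not independent tests. In *Htt+/+* mice 6 members rose and 11 fell of 74 tested (23.0%), where 17.8% of all genes passed (9.06% higher, 8.79% lower). In *HttQ111/+* mice 5 rose and 13 fell of 74 (24.3%), against 16.5% of all genes (7.68% higher, 8.86% lower). The median log2 change of the members was -0.042 and -0.019, against -0.001 and -0.004 for all genes. The changes were small: the largest among the calls was 0.37 on the log2 scale, for the low-abundance *Bag2*.

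The 2 backgrounds gave overlapping calls, in fits that were not independent of each other. *Bag1*, *Dnajb11* and *Dnajc27* rose in both and *Dnajb12*, *Dnajc5*, *Dnajc9*, *Dnajc10*, *Dnajc13*, *Dnajc14*, *Dnajc16*, *Hspa9* and *Stub1* fell in both, together 12 of 73 tested in both (16.4%, against 11.5% of all genes) and 70.6% and 66.7% of the calls in each background. The sign was the same for 62 of 73 members (84.9%), against 75.8% of all genes. J proteins were 39 of the 74 members tested. Of these, 2 rose and 9 fell in *Htt+/+* and 4 rose and 10 fell in *HttQ111/+* mice, beside 8.79% and 8.86% of all genes that fell.

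**Figure D4:**
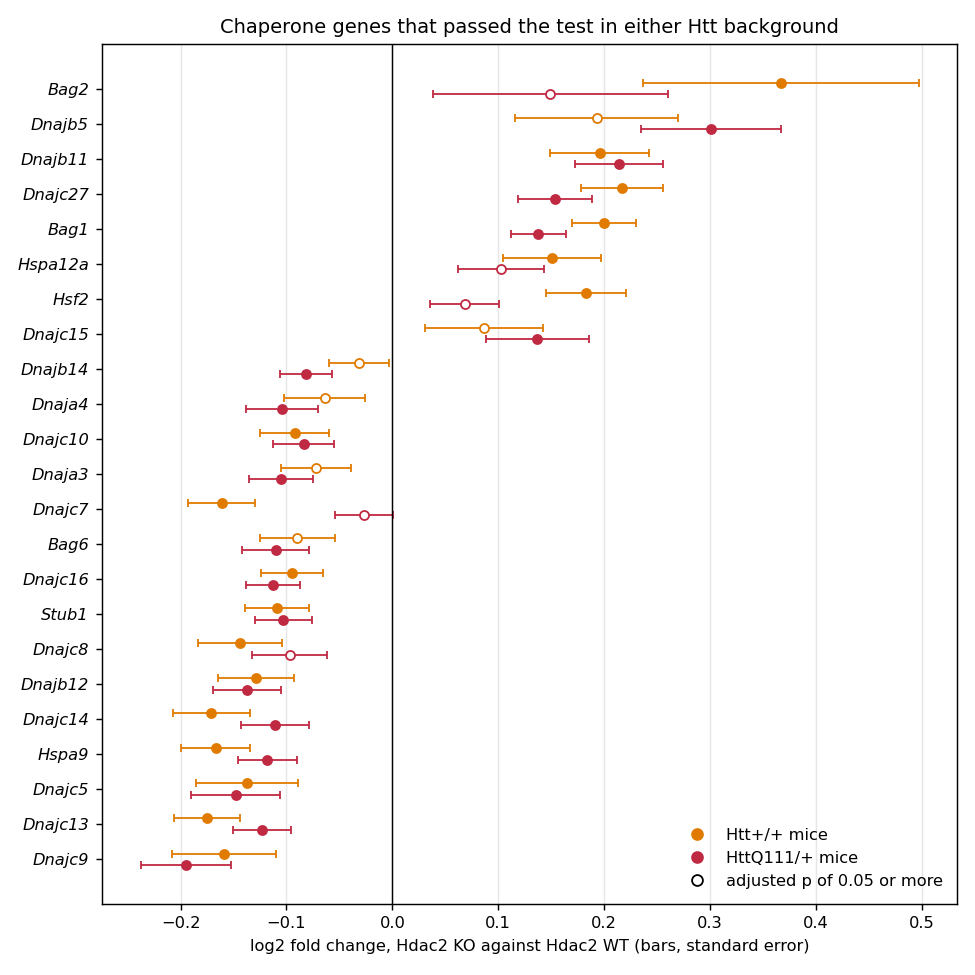
Log2 fold change of *Hdac2* KO against *Hdac2* WT with its standard error (edgeR) for the 23 chaperone genes that passed in at least 1 *Htt* background. Filled points passed the test (adjusted p under 0.05), and points of both colours lie on the same side of 0 for all 23.

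*Bag1* was the member with the smallest adjusted p in both backgrounds. It lies at chr4:40936398-40948243 on the minus strand and overlaps no other gene. It ranged from 67.1 to 80.0 CPM (median 72.2) in *Htt+/+* *Hdac2* WT and from 81.9 to 97.9 (88.7) in *Htt+/+* *Hdac2* KO mice, and from 71.3 to 90.1 (76.2) in *HttQ111/+* *Hdac2* WT and 78.2 to 96.5 (85.1) in *HttQ111/+* *Hdac2* KO mice. All 9 *Htt+/+* *Hdac2* KO mice lay above all 8 of their controls, while in *HttQ111/+* mice the ranges overlapped and 3 of 11 lay above all 7 controls and 11 above their median. The log2 change was 0.20 ± 0.0299 (SE, adjusted p = 1.14e-05, edgeR) and 0.14 ± 0.0261 (adjusted p = 0.000317). For *Bag1* and the genes below, the share of all genes whose *Hdac2* KO mice all lie beyond their controls was not taken.

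Of the other BAG and CHIP genes, *Stub1* (CHIP), which marks HSP70 clients with ubiquitin, fell by 0.11 in *Htt+/+* and 0.10 in *HttQ111/+* mice in the fit (adjusted p = 0.0106 and 0.00712, edgeR). *Stub1* held as a call in 12 of 18 alternative fits in each background. Its raw ranges overlapped throughout, with 74.8 to 86.2 CPM (median 79.1) and 72.2 to 82.5 (77) in *Htt+/+* and 72.0 to 87.0 (80.3) and 66.8 to 89.5 (75.2) in *HttQ111/+* mice, WT before KO. Its gene also overlaps *Jmjd8*, *Gm26694* and *Mir3082*. *Bag2*, which inhibits CHIP, rose by 0.37 ± 0.130 in *Htt+/+* mice (adjusted p = 0.0470) at a level of 1.81 to 3.41 CPM, and was at 0.15 ± 0.111 in *HttQ111/+* mice (adjusted p = 0.417). *Bag6*, which guards membrane proteins that miss their target, fell by 0.11 in *HttQ111/+* mice (adjusted p = 0.0153). *Bag3* was at 0.17 ± 0.102 and 0.19 ± 0.0902 (adjusted p = 0.282 and 0.149).

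The transcription factors differed. *Hsf2*, which forms mixed trimers with HSF1, was at 23.9 to 28.8 CPM (median 25.3) in *Htt+/+* *Hdac2* WT and 26.9 to 29.0 (28.2) in *Htt+/+* *Hdac2* KO mice, all 9 above the control median and 1 above all controls. It rose by 0.18 ± 0.0379 (adjusted p = 0.000779, edgeR), and in *HttQ111/+* mice it was at 0.07 ± 0.0329 (adjusted p = 0.169). *Hsf1*, the main stress regulator, was at medians of 25.4, 24.1, 26.0 and 25.3 CPM in the 4 groups, and its log2 change was -0.05 ± 0.0627 and -0.06 ± 0.0554 (adjusted p = 0.630 and 0.527).

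Some heat-inducible members, 7 of the 13, were lower in *Htt+/+* *Hdac2* KO than in *Htt+/+* *Hdac2* WT mice in the fit with no covariate. None passed in the fit of all genotype groups with surrogate variables. With no covariate 34 of 74 members passed in *Htt+/+* mice (6 rose, 28 fell), against 23.4% of all genes. *Hspa8* was at 478 to 680 CPM (median 491) in *Htt+/+* *Hdac2* WT and 396 to 563 (421) in *Htt+/+* *Hdac2* KO mice, and at 437 to 571 (465) and 407 to 623 (480) in *HttQ111/+* mice. In *Htt+/+* mice 8 of 9 *Hdac2* KO mice lay below all 8 controls, the exception being replicate 8, and in *HttQ111/+* mice the ranges overlapped. The medians of *Hsph1* were 462 and 362 CPM in *Htt+/+* and 412 and 409 in *HttQ111/+* mice, and those of *Dnajb1* 51.0 and 41.6 and 42.6 and 45.2.

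With surrogate variables in the fit of all genotype groups, none of the 13 passed in either background by edgeR, DESeq2 or limma-voom. There were 0 and 2 at an unadjusted p under 0.05, and the median log2 change was -0.027 and 0.034. With surrogate variables and only the groups compared, 6 of the 13 fell in *Htt+/+* mice by edgeR (median -0.14), where 29.7% of all genes passed. In *HttQ111/+* mice *Hspb1* and *Bag3* rose in that setting (adjusted p = 0.0153 and 0.0432, edgeR). With sex in place of the surrogate variables 5 of the 13 fell in *Htt+/+* mice, where 23.1% of all genes passed. With no covariate in the edgeR fit 7 of the 13 fell in *Htt+/+* mice and the median was -0.16: *Dnajb1* fell by 0.38 (adjusted p = 0.0141), *Hsph1* by 0.27 (adjusted p = 0.0472), *Hspa8* by 0.24 (adjusted p = 0.0292), *Dnaja1*, the J partner of HSC70, by 0.21 (adjusted p = 0.00721), the mitochondrial chaperonin *Hspd1* (HSP60) by 0.13 (adjusted p = 0.0254), and *Hspa1a* and *Hspa1b* by 1.30 and 1.34 (adjusted p = 0.0266 and 0.0471). In this fit 23.4% of all genes passed. For *Hspa1a* and *Hspa1b* the log2 ratios of the group medians were smaller, -0.74 and -0.71. The controls include replicate 4 at 34.6 and 34.3 CPM. Of the 6 that did not pass, *Hsp90aa1* was at -0.16, *Hspa4l* at -0.13, *Hsp90ab1* and *Hspe1* at -0.06, *Hspb1* at 0.03 and *Bag3* at 0.09. With extraction date and sex as terms, 0 passed and the median was -0.13. In *HttQ111/+* mice with no covariate 1 of 13 passed, *Hspb1*, which rose, and the median was 0.01. Which of these fits is nearer to the effect of the genotype was not tested.

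In the fit with surrogate variables the 95% confidence interval of the log2 change was -0.20 to 0.03 in *Htt+/+* and -0.13 to 0.06 in *HttQ111/+* mice for *Hspa8*, -0.17 to 0.09 and -0.12 to 0.11 for *Hsph1*, -0.19 to 0.09 and -0.14 to 0.11 for *Dnajb1* and -0.12 to 0.05 and -0.04 to 0.11 for *Dnaja1*. For the cytosolic HSP90 genes it was -0.05 to 0.12 and -0.03 to 0.12 (*Hsp90ab1*) and -0.13 to 0.08 and -0.05 to 0.13 (*Hsp90aa1*). It was -0.08 to 0.08 and -0.07 to 0.07 for *Hspd1* and -0.13 to 0.14 and -0.04 to 0.20 for its partner *Hspe1* (HSP10), which overlaps it.

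For *Hspa1a* and *Hspa1b* the log2 change in *Htt+/+* mice was -0.19 ± 0.351 and 0.07 ± 0.419 with surrogate variables (95% confidence intervals of -0.87 to 0.50 and -0.75 to 0.90), so the sign for *Hspa1b* turned with the covariates. In *HttQ111/+* mice they were at 0.00 ± 0.301 and 0.22 ± 0.370. Of the other HSP70 genes, *Hspa12a*, a distant relative of the family, rose by 0.15 ± 0.0465 in *Htt+/+* mice (adjusted p = 0.0215, edgeR) and was at 0.10 ± 0.0407 in *HttQ111/+* mice (adjusted p = 0.0842). Its medians were 142, 151, 159 and 157 CPM in the 4 groups.

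Of the 5 small heat shock proteins tested none passed in either background with surrogate variables in the fit of all genotype groups. This held by edgeR, DESeq2 and limma-voom, with 0 and 1 at an unadjusted p under 0.05. *Hspb1* (HSP27), at 0.958 to 3.79 CPM over all mice, was at 0.26 ± 0.178 and 0.34 ± 0.153 (adjusted p = 0.365 and 0.138), and *Hspb8* at -0.04 ± 0.0694 and -0.05 ± 0.0610 (adjusted p = 0.737 and 0.675). In *HttQ111/+* mice *Hspb1* passed by edgeR with no covariate (0.53, adjusted p = 0.0371), with sex (0.53, 0.0411) and with only the groups compared (0.44, 0.0153). With extraction date and sex it did not pass (0.53, 0.493). All 11 *HttQ111/+* *Hdac2* KO mice lay above its control median and 6 above all controls. In *Htt+/+* mice its change with no covariate was 0.03 (adjusted p = 0.913, edgeR). Class A and B J proteins of the cytosol carry clients to HSP70. Of the 9 tested, none passed in *Htt+/+* mice with surrogate variables in the fit of all genotype groups. The same was true by edgeR, DESeq2 and limma-voom (2 at an unadjusted p under 0.05). With only the groups compared, *Dnaja1* and *Dnajb1* fell in *Htt+/+* mice (adjusted p = 0.00983 and 0.0316, edgeR), where 29.7% of all genes passed. With no covariate in the edgeR fit *Dnaja1*, *Dnaja2*, *Dnaja4*, *Dnajb1* and *Dnajb4*, 5 of the 9, fell there, where 23.4% of all genes passed. In *HttQ111/+* mice 0 passed with no covariate (1 at an unadjusted p under 0.05). With surrogate variables *Dnajb5* rose and *Dnaja4* fell by 0.10 in *HttQ111/+* mice (adjusted p = 0.0333, edgeR). *Dnajb5* was at 78.3 to 149 CPM (median 105) in *HttQ111/+* *Hdac2* WT and 89.6 to 202 (142) in *HttQ111/+* *Hdac2* KO mice, with 4 of 11 above all controls, and rose by 0.30 ± 0.0663 (adjusted p = 0.00158). In *Htt+/+* mice the medians were 140 and 144 CPM and the fitted change 0.19 ± 0.0768 (adjusted p = 0.0829). *Dnajb6* and *Dnajb2*, J proteins that restrain polyglutamine aggregation, were at -0.06 ± 0.0574 and -0.08 ± 0.0510 in *Htt+/+* and 0.00 ± 0.0508 and -0.08 ± 0.0445 in *HttQ111/+* mice, with adjusted p from 0.231 to 0.991.

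Among the J proteins of the synapse and endosome, *Dnajc27*, a Rab-like GTPase with a J domain, rose, and *Dnajc13* and *Dnajc5* fell. *Dnajc27* (chr12:4082574-4109204, plus strand, no overlapping gene) was at 88.3 to 107 CPM (median 95.8) and 113 to 127 (119) in *Htt+/+* and at 91.6 to 108 (100) and 89.5 to 119 (114) in *HttQ111/+* mice, WT before KO. All 9 *Htt+/+* *Hdac2* KO mice lay above all controls, and in *HttQ111/+* mice 10 of 11 did and 1 lay below all. The log2 change was 0.22 ± 0.0386 (adjusted p = 0.000125, edgeR) and 0.15 ± 0.0350 (adjusted p = 0.00208).

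*Dnajc13* (RME-8; chr9:104151597-104262930, minus strand, no overlapping gene), which sorts cargo at endosomes, was at 90.1 to 100 CPM (median 97.0) and 78.1 to 87.8 (83.2) in *Htt+/+* and at 79.7 to 96.0 (91.9) and 70.0 to 91.2 (83.5) in *HttQ111/+* mice. All 9 *Htt+/+* *Hdac2* KO mice lay below all controls, and in *HttQ111/+* mice 3 of 11 did and all 11 lay below the control median. It fell by 0.18 (SE 0.0311, adjusted p = 0.000122, edgeR) and by 0.12 (SE 0.0272, adjusted p = 0.00162). *Dnajc5* (cysteine string protein), the J protein of synaptic vesicles, was at medians of 113 and 97.5 CPM in *Htt+/+* and 112 and 98 in *HttQ111/+* mice and fell by 0.14 and 0.15 (adjusted p = 0.0459 and 0.0142). *Dnajc6* (auxilin) was at 0.03 ± 0.0313 and -0.04 ± 0.0277 (adjusted p = 0.584 and 0.358).

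In the ER the J proteins split. *Dnajb11* (chr16:22857845-22879634, plus strand, no overlapping gene) was at 41.6 to 67.2 CPM (median 50.9) and 48.2 to 62.1 (57.1) in *Htt+/+* and at 41.6 to 54.1 (46.5) and 45.5 to 67.7 (61.0) in *HttQ111/+* mice. In *Htt+/+* mice the *Hdac2* KO values lay within the range of the controls, and in *HttQ111/+* mice 8 of 11 *Hdac2* KO mice lay above all controls. It rose by 0.20 ± 0.0467 (adjusted p = 0.00309, edgeR) and 0.21 ± 0.0415 (adjusted p = 0.000412), and with no covariate in the fit the change in *Htt+/+* mice was 0.13 and did not pass (adjusted p = 0.271). *Hspa5* was at 0.17 ± 0.0838 and 0.13 ± 0.0713 (adjusted p = 0.175 and 0.225), *Hsp90b1* at 0.01 ± 0.0699 and 0.14 ± 0.0612 (0.948 and 0.126) and *Dnajc3* at 0.13 ± 0.0576 and 0.11 ± 0.05 (0.141 and 0.147), none past the test. Of the 6 unfolded protein response members, 1 passed in each background, where 17.8% and 16.5% of all genes passed. The median change of the 6 was 0.080 and 0.121. In *Htt+/+* mice with no covariate the signs turned for *Hspa5* (-0.17), *Hsp90b1* (-0.10) and *Hspa13* (from 0.03 to -0.10), none past the test, and *Dnajb9* fell by 0.16 (adjusted p = 0.0119). Averaged over both backgrounds, *Dnajb11* and *Dnajc3* passed, *Dnajc3* at 0.12 ± 0.0423 (adjusted p = 0.0329), and *Hspa5* was at 0.16 ± 0.0611 (adjusted p = 0.0539).

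The ER members that fell were J proteins of the membrane and of disulfide exchange. *Dnajc14* (chr10:128805676-128819446, plus strand, overlapping *Ormdl2*), which carries receptors out of the ER, was at 66.9 to 75.8 CPM (median 70.2) and 56.1 to 65.5 (63.4) in *Htt+/+* and at 66.5 to 74.6 (70.9) and 61.6 to 68.0 (64.9) in *HttQ111/+* mice. All 9 and 10 of 11 *Hdac2* KO mice lay below all controls. It fell by 0.17 (SE 0.0365, adjusted p = 0.001, edgeR) and 0.11 (SE 0.0321, adjusted p = 0.0153). *Dnajb12*, which sends ER membrane proteins to degradation, fell by 0.13 and 0.14 (adjusted p = 0.0101 and 0.00290), *Dnajc16* by 0.09 and 0.11 (0.0208 and 0.00219) and *Dnajc10* (ERdj5), a disulfide reductase, by 0.09 and 0.08 (0.0487 and 0.0444). *Dnajb14*, the paralog of *Dnajb12*, fell by 0.08 in *HttQ111/+* mice (adjusted p = 0.0207).

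Of 10 mitochondrial members, 1 fell in *Htt+/+* mice, and 1 rose and 2 fell in *HttQ111/+* mice, where 17.8% and 16.5% of all genes passed. *Hspa9*, the HSP70 that drives protein import and folding in the matrix, was at 241 to 260 CPM (median 251) and 211 to 224 (219) in *Htt+/+* and at 234 to 271 (243) and 213 to 240 (226) in *HttQ111/+* mice. All 9 and 8 of 11 *Hdac2* KO mice lay below all controls. It fell by 0.17 (SE 0.0322, adjusted p = 0.000333, edgeR) and 0.12 (SE 0.0279, adjusted p = 0.00310). In *HttQ111/+* mice its J partner *Dnaja3* (TID1), whose gene overlaps *Vasn* and *Coro7*, fell by 0.10 (adjusted p = 0.0142) and *Dnajc15*, a J protein of the inner membrane, rose by 0.14 (adjusted p = 0.0499).

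**Figure D5:**
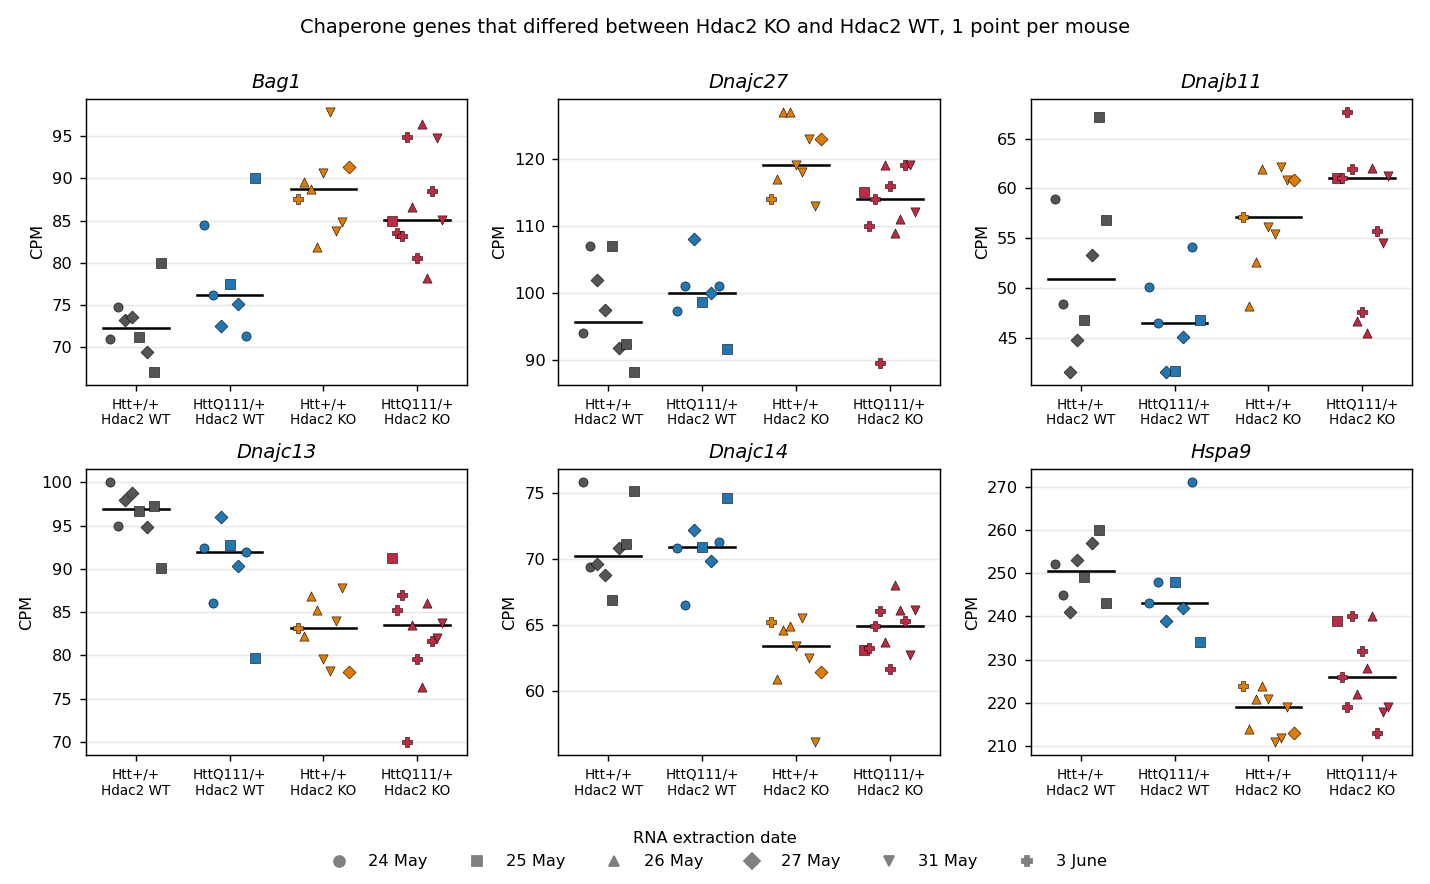
CPM of 6 chaperone genes that passed in both *Htt* backgrounds, 1 point per mouse by genotype group, with the group median as a line and the RNA extraction date as the symbol (axes do not start at 0). The 9 *Htt+/+* *Hdac2* KO mice lie beyond all 8 of their controls for *Bag1*, *Dnajc27*, *Dnajc13*, *Dnajc14* and *Hspa9*, but not for *Dnajb11*. The 6 genes were picked for passing in these same libraries, and the share of all genes that separate so was not taken.

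Of 8 other class C J proteins, 3 fell in *Htt+/+* mice and 1 of them in *HttQ111/+* mice too, where 8.79% and 8.86% of all genes fell. *Dnajc9*, a J protein that also chaperones histones, was at medians of 30.7 and 27.2 CPM in *Htt+/+* and 32.5 and 28.2 in *HttQ111/+* mice and fell by 0.16 and 0.20 (adjusted p = 0.0210 and 0.00151, edgeR). *Dnajc7* and *Dnajc8*, a J protein of the spliceosome, fell in *Htt+/+* mice by 0.16 and 0.14 (adjusted p = 0.000423 and 0.0105), and were at -0.03 ± 0.0274 and -0.10 ± 0.0353 in *HttQ111/+* mice (adjusted p = 0.575 and 0.0579). The gene interval of *Dnajc7* overlaps *Nkiras2* and *Cnp*, a strong oligodendrocyte gene, and their part in its count was not tested.

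The *Hdac2* comparisons rest on mice whose RNA was extracted on different days. On 24 May only *Hdac2* WT mice were processed and on 26 May, 31 May and 3 June only *Hdac2* KO mice, so 2 days held both: 25 May with 5 WT mice and 1 *HttQ111/+* *Hdac2* KO mouse, and 27 May with 5 WT mice and 1 *Htt+/+* *Hdac2* KO mouse. With extraction date and sex as terms in place of the surrogate variables, 2 members of 74 passed in *Htt+/+* and 0 in *HttQ111/+* mice by edgeR, where 3.88% and 1.86% of all genes passed. All 12 shared genes kept their sign in both. They were picked for passing in these same libraries, so the kept signs are no separate test. The median SE rose from 0.0343 to 0.0762 and from 0.0304 to 0.0777, and 6 and 5 of the 12 had an unadjusted p under 0.05. Some changes became smaller by over 1.5 times: *Dnajc9* went from -0.16 to -0.03 in *Htt+/+* and from -0.20 to -0.07 in *HttQ111/+* mice, *Stub1* from -0.11 to -0.05 in *Htt+/+* mice and *Dnajc13* from -0.12 to -0.06 in *HttQ111/+* mice. Others became larger, such as *Dnajb11*, from 0.21 to 0.39 in *HttQ111/+* mice. The 2 that passed were *Dnajc27* at 0.37 (adjusted p = 0.00461) and *Dnajc14* at -0.22 (adjusted p = 0.0218).

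Within the shared days the direction could be read from 1 KO mouse each, with no test. Both mice were among the libraries that gave the 12 calls, and the share over all genes was not taken. The 5 WT mice of each day were 3 *Htt+/+* and 2 *HttQ111/+* *Hdac2* WT mice, so these controls mixed both *Htt* genotypes. On 27 May the *Htt+/+* *Hdac2* KO mouse lay beyond all 5 WT mice of that day, on the side of the fitted change, for 11 of the 12 genes: *Bag1* was at 91.4 CPM against 69.4 to 75.1, *Dnajc27* at 123 against 91.8 to 108, *Dnajc13* at 78.1 against 90.3 to 98.8 and *Hspa9* at 213 against 239 to 257. *Stub1* was the exception, at 82.5 against 73.2 to 80.2. On 25 May the *HttQ111/+* *Hdac2* KO mouse lay beyond all 5 WT mice for 5 of 12 (*Dnajb12*, *Dnajc14*, *Dnajc16*, *Dnajc27* and *Stub1*) and beyond their median for 10. Beyond these values, *Hdac2* genotype and extraction date cannot be told apart.

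Some of the mice that stood apart were left out in turn. Over all comparisons 54 calls of named members were followed, and all 54 passed without *Htt+/+* *Hdac2* WT replicate 4 or *Hdac2* KO replicate 8, and 53 without *Htt+/+* *Hdac2* WT replicate 1 or *HttQ111/+* *Hdac2* WT replicate 7. The other mice named above were not left out. With no covariate in the fit, 34 members passed in *Htt+/+* mice (6 rose, 28 fell) in place of 17, against 23.4% of all genes.

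Few chaperone genes passed the test for the *HttQ111* allele. In *Hdac2* WT mice 0 of 74 members passed by edgeR, where 0.403% of all genes did, and 7 had an unadjusted p under 0.05 (10.9% of all genes). In *Hdac2* KO mice 0 of 74 passed (0.00584% of all genes), and 4 had an unadjusted p under 0.05 (7.52%). By DESeq2 2 members passed in *Hdac2* WT mice, *Dnajc7* and *Hspa2*, where 0.887% of all genes passed. In *Hdac2* KO mice 0 passed by DESeq2, and by limma-voom 0 passed in both. The change had the same sign in both for 48 of 73 members (65.8%, against 58.6% of all genes). The median change of the 13 heat-inducible members was -0.018 and 0.014 and that of the 6 unfolded protein response members -0.016 and 0.006.

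Averaged over both *Hdac2* genotypes, *Hspa2* rose and *Bag4* fell, 2 of 75 members (2.67%) where 1.27% of all genes passed (0.432% higher, 0.836% lower). *Hspa2*, an HSP70 best known from germ cells, was at 21.6 to 25.3 CPM (median 24.2) and 23.0 to 28.7 (25.7) in *Hdac2* WT and at 22.7 to 29.3 (25.2) and 25.6 to 30.9 (27.1) in *Hdac2* KO mice, *Htt+/+* before *HttQ111/+*. The ranges overlapped, and 17 of 18 *HttQ111/+* mice lay above the median of all *Htt+/+* mice. *Bag2* and *Hspb11*, which did not pass, had the same count of 17 of 18. *Hspa2* rose by 0.14 ± 0.0298 (adjusted p = 0.0156, edgeR), with 0.18 ± 0.0461 in *Hdac2* WT (adjusted p = 0.0804) and 0.09 ± 0.0366 in *Hdac2* KO mice (adjusted p = 0.525).

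*Bag4* (silencer of death domains), which holds tumour necrosis factor receptors inactive, was at 90.0 to 110 CPM (median 103) and 79.0 to 104 (96.9) in *Hdac2* WT and at 76.5 to 98.1 (91.2) and 78.3 to 94.6 (85.3) in *Hdac2* KO mice. The ranges overlapped, and 13 of 18 *HttQ111/+* mice lay below the *Htt+/+* median. It fell by 0.12 (SE 0.0267, adjusted p = 0.0198, edgeR), with 0.0598 without *Htt+/+* *Hdac2* WT replicate 1 and 0.0540 without *HttQ111/+* *Hdac2* WT replicate 7, which had its lowest level (79.0 CPM) and the most cortical neuron marker RNA. The MSN marker sum was lower in *HttQ111/+* than in *Htt+/+* mice, at medians of 6540 against 9060 CPM in *Hdac2* WT and 7630 against 8780 in *Hdac2* KO mice, and its part in these changes was not tested. Neither gene passed with no covariate in the fit.

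No member passed the interaction of the genotypes by edgeR (0 of 75, against 0.00577% of all genes), and none by DESeq2 or limma-voom, and 3 had an unadjusted p under 0.05 (5.63% of all genes). *Dnajc7* was the closest, at medians of 224, 202, 208 and 206 CPM in the groups as first listed. It was lower in each of the other 3 groups than in *Htt+/+* *Hdac2* WT mice, and its interaction was 0.13 ± 0.0364 (adjusted p = 0.549). *Hsf2* was at -0.12 ± 0.0446 and *Bag5*, a BAG protein with several BAG domains, at 0.13 (adjusted p = 0.856 and 0.867).

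*HttQ111/+* *Hdac2* KO mice were also set against *Htt+/+* *Hdac2* WT mice, which shares its controls with the comparisons above. Of 74 members 10 rose and 14 fell (32.4%), against 21.2% of all genes (10.2% higher, 11% lower). *Bag4* was lower by 0.23 (adjusted p = 0.000125, edgeR), *Dnajc7* by 0.14 (adjusted p = 0.000668) and *Dnajc8* by 0.19 (adjusted p = 0.000375), while *Hspa2* was higher by 0.22 (adjusted p = 0.000687), *Hsf2* by 0.14 (adjusted p = 0.00394) and *Bag2* by 0.43 (adjusted p = 0.00852). With surrogate variables in the fit of all genotype groups, none of the 13 heat-inducible members passed by edgeR, with 1 at an unadjusted p under 0.05. *Bag3* passed in that setting by DESeq2 and by limma-voom. The values of *Hspa1a* and *Hspa1b*, 0.04 ± 0.332 and 0.38 ± 0.396, became -1.26 and -1.36 with no covariate in the fit (adjusted p = 0.0217 and 0.0307). The controls include replicate 4 at 34.6 and 34.3 CPM, with the next mouse at 7.10 and 8.44. The part of this mouse in the falls was not tested.

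The partners of the chaperones that the symbol rule leaves out were read from 57 other genes: co-chaperones of HSP90 and HSP70, the cytosolic chaperonin TRiC with prefoldin, the ER folding enzymes with unfolded protein response factors, and mitochondrial folding factors. With *Hdac2* KO, 7 rose and 4 fell in *Htt+/+* and 10 rose and 2 fell in *HttQ111/+* mice, 19.3% and 21.1%, against 17.8% and 16.5% of all genes. The co-chaperones (19 genes) had 5 that rose and 1 that fell in each background, and the ER list (18 genes) 2 and 4 that rose and none that fell. TRiC and prefoldin (13 genes) had 1 call in each, down in *Htt+/+* and up in *HttQ111/+* mice, and the mitochondrial list (7 genes) 2 and 1 that fell.

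*Fkbp5*, an HSP90 co-chaperone that glucocorticoids induce, was at 52.3 to 80.6 CPM (median 56.0) and 62.8 to 115 (69.6) in *Htt+/+* and at 49.4 to 65.3 (54.1) and 60.1 to 95 (67.8) in *HttQ111/+* mice and rose by 0.46 (adjusted p = 5.33e-06, edgeR) and 0.47 (adjusted p = 6.61e-07). *Hsbp1*, which binds HSF1 and restrains it, rose by 0.18 and 0.12 (adjusted p = 1.22e-05 and 0.000338), from medians of 161 and 165 to 176 and 175 CPM. *Ahsa2*, an activator of the HSP90 ATPase, rose by 0.44 in *Htt+/+* mice (adjusted p = 0.000895), and *Fkbp4*, another HSP90 co-chaperone, by 0.20 in *HttQ111/+* mice (adjusted p = 0.000734). With the *HttQ111* allele, averaged over *Hdac2* genotypes, 1 of the 57 passed, where 1.27% of all genes did. It was *Atf6*, a sensor of the unfolded protein response, which fell by 0.14 (adjusted p = 0.0394, edgeR).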

How the data were processed

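The authors deposited raw counts per gene and library, made by aligning reads to GRCm38 with GSNAP and counting uniquely aligned reads across each Ensembl gene from end to end with bedtools, and left out 1 outlier library. Introns are included, overlapping genes share reads, and the use of strand in counting was not given in the sources used here. Removing 92 spike-ins, 6152 genes no longer than 250 nt and both mitochondrial rRNA genes left 32863 of 39109 entries.

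Counts were scaled by TMM and tested with edgeR 4.0.16 (quasi-likelihood, R 4.3.3), with surrogate variables from sva 3.50.0 as covariates. A gene was tested where each mouse of 1 or more groups had 6 counts or more, and p-values were adjusted by Benjamini-Hochberg over all genes tested. CPM are TMM-scaled counts per 1000000 counts. The depth of 50970712 to 77867348 counts limits only the lowest members. DESeq2 1.42.0, limma 3.58.1, other covariates, filters and left-out libraries were alternatives, and the scripts were tested on simulated data. Promoter windows came from RefSeq, and gene positions from GENCODE on the same build.

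The members and lists were chosen with earlier results of these data known. Named genes were, by rule, up to 12 members with the smallest adjusted p in each comparison, a fixed list of well-known chaperones, untested members, the highest and lowest member of each role, and up to 5 other genes of the pathway in each comparison. The other members named were chosen after their values were seen. The replicate numbers come from the labels, and nothing in the labels ties equal numbers of different groups to each other. One gene of the pathway lists is not reported here.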

Additional observations from a re-analysis of the deposited data

Results flagged for a closer look

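Groups of 4 to 10 mice were screened for 38 named chaperone genes, so *HttQ111/+* *Hdac2* KO with its 11 mice was not screened. In 114 such groups, 16 had a highest or lowest mouse farther from the nearest other mouse, relative to the range, than Dixon's 95% limit, where chance gives about 1 in 20. *Htt+/+* *Hdac2* KO replicate 8 accounted for 6 of them: its levels were the highest of 9 mice for *Hspa1b* (12.8 CPM, next 2.34), *Hspa1a* (11, next 2.86), *Dnajb1* (63.5, next 45.2), *Hspa8* (563, next 475) and *Hspa2* (29.3, next 26.0), and the lowest for *Dnajc14* (56.1, next 60.9). *Htt+/+* *Hdac2* WT replicate 4 was the highest of 8 for *Hspa1a* (34.6, next 7.10), *Hspa1b* (34.3, next 8.44) and *Bag3* (11.9, next 8.78). Both mice share high inducible HSP70 and belong to different *Hdac2* groups. *Htt+/+* *Hdac2* WT replicate 8 was the highest for *Hspa8* (680, next 553) and *Hsp90b1* (679, next 542) and *HttQ111/+* *Hdac2* WT replicate 6 for *Hsp90ab1* (1650, next 1510) and *Hspa9* (271, next 248).

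In 3 groups 1 mouse stood out for 1 gene. *Stub1* was highest in *Htt+/+* *Hdac2* WT replicate 9 (86.2 CPM, next 80.2), *Dnajc6* lowest in *Htt+/+* *Hdac2* KO replicate 9 (206, next 225) and *Bag4* lowest in *HttQ111/+* *Hdac2* WT replicate 7 (79.0, next 93.9). The causes were not tested.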

How the results depend on the processing

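Of 54 calls of named members, 54 held with DESeq2 size factors, the DESeq2 Wald test, limma-voom, short genes kept, and without *Htt+/+* *Hdac2* WT replicate 4, *Htt+/+* *Hdac2* KO replicate 8 or the deepest library. Calls depended mainly on the covariates. In place of 17 members called for *Hdac2* KO in *Htt+/+* mice, there were 34 with no covariate (23.4% of all genes passed, 17.8% before), 32 with sex (23.1%), 33 with only the groups compared (29.7%) and 2 with extraction date and sex (3.88%). In place of 18 in *HttQ111/+* mice there were 0 with date and sex (1.86%) and 11 with no count filter (8.96%), against 16.5% of all genes before. Date and sex left 2 for *HttQ111/+* *Hdac2* KO against *Htt+/+* *Hdac2* WT (24 before; 4.12% of all genes) and 2 for the average effect of *Hdac2* KO (27 before; 4.02%). For the *HttQ111* allele in *Hdac2* WT mice, where 0 passed by edgeR and 7 had an unadjusted p under 0.05, 1 passed with date and sex (2.25% of all genes), 3 with the ID series of the mice and sex (5.01%), 1 without the mice with 1 floxed allele (3.09%) and 2 by DESeq2 (0.887%). The average effect of the allele had 2 calls, 0 with no covariate, with sex or in males only, and 1 without either of *Htt+/+* *Hdac2* WT replicate 1 and *HttQ111/+* *Hdac2* WT replicate 7, where *Bag4* was lost. The allele in *Hdac2* KO mice and the interaction had 0 under every alternative run.

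Among changes that passed in the alternative, signs turned for *Hspa1b* in *Htt+/+* mice (-1.34 with no covariate), for *Hspa1b* in *HttQ111/+* *Hdac2* KO against *Htt+/+* *Hdac2* WT mice (-1.36 with no covariate, -1.33 with sex, -1.40 with ID series, -1.03 with only the groups compared) and for *Hspa1a* there (-1.26, -1.24, -1.28 and -1.04 in the same order). Signs of changes that did not pass turned too, as for *Hspa5*, *Hsp90b1*, *Hsp90ab1* and *Hspa13* in *Htt+/+* mice with no covariate. Averaged over backgrounds, *Dnajc6* turned to -0.07 with no covariate and -0.07 with sex. Equal replicate numbers did not pair the mice: deviations of same-numbered mice correlated at -0.297 to 0.449, above 0.1 in 16 of 45 pairs. With the replicate number as a block, 31 members passed in *Htt+/+* (25.4% of all genes) and 8 in *HttQ111/+* mice (10.8%) and 1 for the average effect of the allele, and *Hspd1* and *Dnaja1* turned to -0.07 and -0.09 in the average effect of *Hdac2* KO.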
